A study of Arabidopsis thaliana with 18 samples.

Results

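The level of every transcript in guard cells incubated without added sugars was taken from 6 of the 18 arrays of the series, 3 from wild type and 3 from the rgs1 mutant. All 22746 probe sets of the Affymetrix ATH1 array were kept, each with its mean log2 signal over the 6 arrays, and no control probe set was among them. Wild type was Arabidopsis thaliana Col-0, and rgs1 carried a null allele, in the same background, of RGS1, a membrane protein that sets the activity of the G protein GPA1. Both genotypes came from rosettes of 8 to 10 weeks grown in 8 h of light and 16 h of dark at 22 °C. Leaf strips were held for 5 h in the light in 0.1 mM CaCl2 with 50 mM KCl and then freeze-dried, and 50 to 100 guard-cell pairs were dissected by hand for each sample, which came from 1 plant. The RNA was amplified in repeated rounds with T7 RNA polymerase. The paper states that the replicates came from different batches of plants. Some batches overlapped in time, and 1 replicate came from a batch raised some months afterwards. The labels do not say which replicate number came from which batch.

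Guard cells are the paired cells around each stomatal pore. They open the pore by extruding protons and taking up potassium, and close it by releasing anions and potassium, mostly under the control of abscisic acid, light and carbon dioxide. They carry chloroplasts but depend on imported sugar, and an outer cuticle covers them. Their precursors pass through a short lineage of divisions governed by a few transcription factors, which is finished in a mature leaf.

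The genotype labels were first checked on RGS1 itself. RGS1 (At3g26090) had log2 signals of 9.48, 10.26 and 10.37 in wild type replicates 1, 2 and 3, and of 5.13, 3.42 and 4.68 in rgs1 replicates 1, 2 and 3. The groups did not overlap, and the mean was 10.04 ± 0.48 (SD, n = 3) in wild type and 4.41 ± 0.88 (SD, n = 3) in rgs1. The log2 difference was -5.63 with an SE of 0.55, an adjusted p of 0.0667 in limma, and a two-sided exact permutation p of 0.1, the smallest that 3 against 3 samples allow. The adjusted p was 0.0261 with a filter at a log2 value of 6 and 0.000128 in a fit of all 18 arrays. In that comparison none of 11068 genes passed an adjusted p under 0.05 (0% of genes tested), and 435 had an unadjusted p under 0.05 (3.93%). RGS1 itself did not pass in this fit, so the lack of calls does not show that the genotypes are alike. The 6 arrays are described together below, with both genotypes shown wherever single arrays are given.

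The levels fell into a tall peak of low signals, where the lower quartile was 2.52, and a broad shoulder above 4. The median over all probe sets was 3.84, the highest twentieth began at 10.43, and the top value was 14.99. A mean under 4, the level taken here as background, was found for 11688 probe sets, or 51.4%. A mean of at least 8 was found for 4449, of at least 10 for 1479 (6.5%), of at least 12 for 300, and of at least 14 for 21. Single arrays were alike in this: from 51.9% to 52.2% of probe sets were under 4. The deposited values had already been normalized between arrays, which makes such shares alike. Of all probe sets 10013 were under 4 on all 6 arrays, 9289 were at least 4 on all 6, and 3444 lay on both sides of that level. The signal of a probe set depends on its probes as well as on its transcript, so the order of genes given here is an order of signals and not of transcript numbers.

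**Figure D1:**
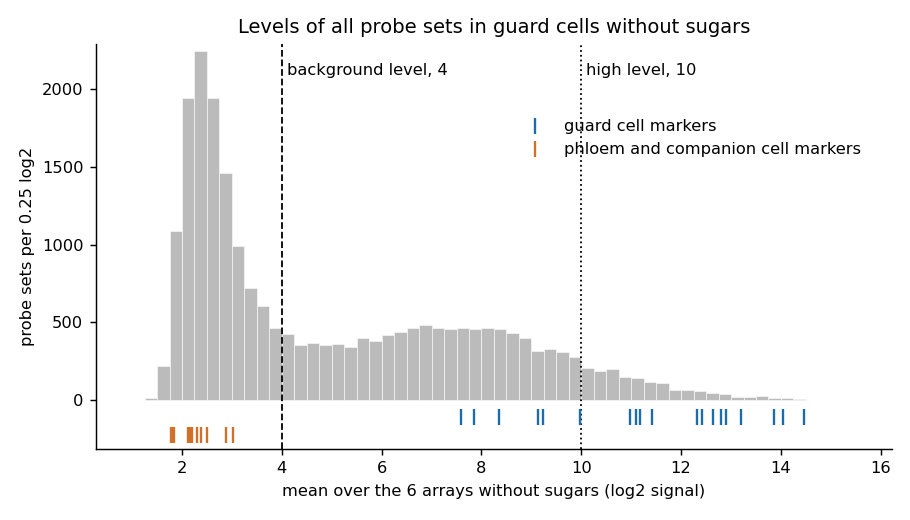
Number of probe sets by mean log2 signal over the 6 arrays without sugars, in steps of 0.25, with ticks for the guard cell and the phloem markers under the axis. Probe sets under the dashed line at 4 number 11688, the 19 guard cell markers lie between 7.60 and 14.46, and the 11 phloem markers between 1.77 and 3.03.

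Guard cell markers were high on every array. All 19 markers measured had a mean of at least 4 and 13 had a mean of at least 10, against 48.6% and 6.5% of all probe sets, and their median level was 11.41 against 3.84. AT1G22690, a transcript long used to mark guard cells, ranged from 13.93 to 15.05 with a median of 14.55. CHX20, a cation/proton exchanger of guard cell endomembranes, ranged from 13.86 to 14.30 with a median of 14.04. KAT1, the inward potassium channel of stomatal opening, ranged from 12.64 to 13.34 with a median of 12.88, and its relative KAT2 had a mean of 11.18 ± 0.14 (SD, n = 6). On each of these genes the genotypes overlapped.

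The other guard cell markers filled the range below. The kinases MPK12, OST1 and HT1, which carry abscisic acid and carbon dioxide signals, had means of 13.19 ± 0.37, 12.79 ± 0.27 and 12.32 ± 0.40 (SD, n = 6). The anion channel SLAC1 was at 12.42 ± 0.21, the myrosinase TGG2 at 13.85 ± 0.16 on a probe set that can read related transcripts, and the cutin enzyme CYP86A2 at 12.63 ± 0.53. BLUS1, a kinase of blue light opening, was at 11.41 ± 0.48, the transcription factor MYB60 at 11.10 ± 0.25, the kinase MPK9 at 10.97 ± 0.41, and the transporter RHC1 at 9.97 ± 0.41. The 4 markers with the largest SDs were the anion channels ALMT12 (9.23 ± 0.65) and SLAH3 (8.35 ± 0.72), the outward potassium channel GORK (7.86 ± 0.97) and PATROL1, a regulator of proton pump delivery (7.60 ± 0.88). GORK was 8.78, 8.81 and 8.08 in wild type and 6.40, 8.09 and 6.98 in rgs1, so the genotypes overlapped on this channel by a narrow margin.

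Transcripts of other organs and tissues were at background. Over all probe sets 48.6% reached a mean of 4. None of the 11 phloem, 9 xylem, 9 root, 5 pollen, 10 floral organ or 8 meristem markers measured did. The list medians of these markers lay between 2.04 and 2.31. The phloem sucrose transporter SUC2, the xylem cellulose synthase CESA8 and the root hair protein COBL9 were among them. Of 14 seed markers only the transcription factor FUS3 passed 4, at 5.01 ± 1.39 (SD, n = 6), with wild type replicate 3 at 7.75 and the other arrays from 3.91 to 4.88. The means of the storage protein genes stayed under 4. Of 7 trichome markers only ETC1, read by a shared probe set, passed 4 (5.07 ± 1.22), with rgs1 replicate 1 at 7.53 and the other arrays from 4.21 to 4.72, while the trichome regulators GL1 and GL2 had means of 3.23 and 2.37.

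Markers of the epidermis and of photosynthetic cells, by contrast, were mostly high. Of 12 epidermis markers 10 had a mean of at least 4 and 5 of at least 10, against 48.6% and 6.5% of all probe sets. CER6 and FDH (FIDDLEHEAD), elongases of cuticular lipids, were at 13.68 ± 0.44 and 13.34 ± 0.20, whereas PDF1 and DCR were at 2.11 and 2.34. Of 9 mesophyll and general photosynthesis markers 8 had a mean of at least 4, and guard cell chloroplasts use most of them as well. RBCS1A, a Rubisco small subunit read by a shared probe set, was at 13.28 ± 0.36, while the carbonic anhydrase CA2 was at 2.22 and STOMAGEN, a peptide that mesophyll secretes, at 2.54 with every array under 2.6. How much RNA of neighbouring cells the dissected pairs held was not tested. In such samples fewer cells of a type and less RNA per cell cannot be told apart.

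**Figure D2:**
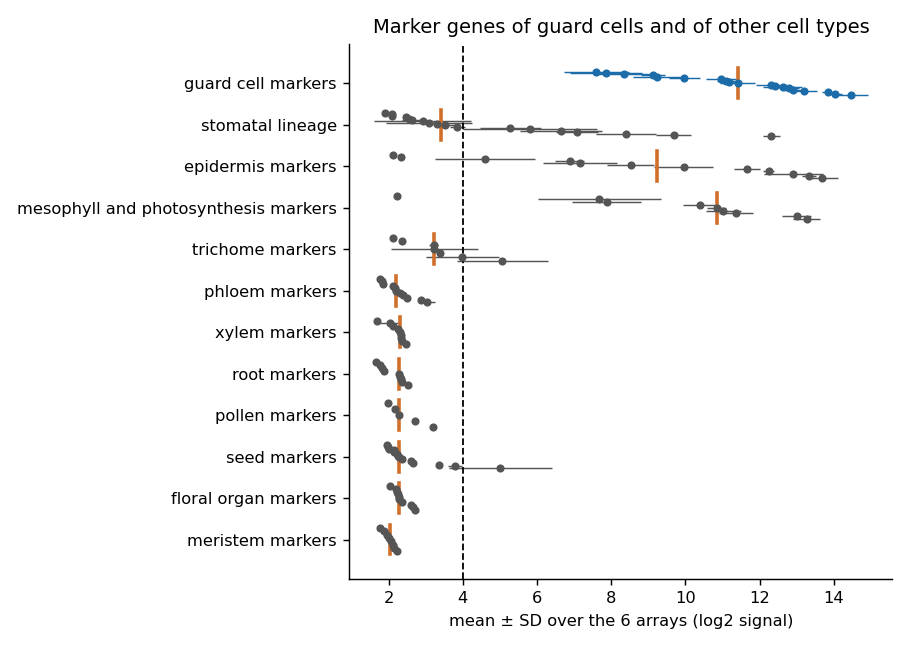
Mean log2 signal (points) with SD over the 6 arrays (bars) for each marker gene measured, by list, with the list median as a vertical bar and the background level of 4 as a dashed line. All 19 guard cell markers lie above the line, and the phloem, xylem, root, pollen, floral organ and meristem markers all lie below it.

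Genes of stomatal development were found at very different levels. Of 18 lineage genes 7 had a mean of at least 4, against 48.6% of all probe sets. FAMA, listed with the guard cell markers, drives the last step to a guard cell and was at 9.13 ± 0.33 (SD, n = 6), from 8.78 to 9.69. Its partners SCRM and SCRM2 were at 12.32 ± 0.23 and 9.68 ± 0.48. SPCH and MUTE, which act before FAMA and with the same partners, were at background on all 6 arrays: SPCH had a mean of 2.64 and at most 3.18, and MUTE ranged from 2.06 to 2.11. BASL, which polarises precursor divisions, was at 2.48, the protease SDD1 at 2.09, and FLP, a MYB factor of the last division, at 1.91.

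The receptors and ligands of stomatal spacing were in between. TMM, a receptor-like protein, was at 8.40 ± 0.82 and reached 10.01 in rgs1 replicate 3, with the other arrays from 7.74 to 8.30. The peptides EPF1 and EPF2 were at 6.64 ± 1.11 and 5.28 ± 0.82. The receptor kinase ER was at 5.81 ± 1.82, with wild type replicate 3 at 2.34 and the other arrays between 5.53 and 7.36, while ERL1 was at 3.85 ± 0.20 and ERL2 at 3.09 ± 1.16. YDA (3.53), MYB88 (3.29) and POLAR (2.92 ± 1.31) had means under 4, although POLAR reached 5.58 in rgs1 replicate 2.

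The 40 named genes with the highest mean all lay above 13.6. The very highest probe set of all reads more than 1 gene and was left unnamed. Among the 50 highest probe sets, 8 were of the shared type and 3 could not be given 1 gene. Of these 50, 19 were among the 50 highest on all 6 arrays and all 50 were among the 500 highest on all 6, and single arrays shared from 36 to 43 of them. The wild type and rgs1 means shared 46 and 44 of them, and the arrays with mannitol and with sucrose, which were not otherwise compared here, shared 40 and 30.

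LTP5 and MT1A had the highest signals of the named genes. LTP5, a lipid-transfer protein of the cell surface, ranged from 14.56 to 15.04 with a median of 14.89. MT1A, a metallothionein, ranged from 14.35 to 15.00, and MT2A and MT2B, of the same class, had means of 13.74 ± 0.62 and 13.64 ± 0.89. GRP-3, a glycine-rich protein, was 15.06, 14.88 and 15.16 in wild type and 13.93, 14.21 and 14.72 in rgs1. The genotypes did not overlap on GRP-3, but neither it nor any other gene passed the adjusted threshold in the comparison of genotypes. How many of all genes had no overlap was not counted. The wall peroxidase PRXCB, read by a shared probe set, was at 14.47 ± 0.49 and the trypsin inhibitor TI2 at 14.17 ± 0.52. TCH4, a xyloglucan enzyme of the wall, ranged from 13.81 to 14.23.

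Some of the highest genes belong to dehydration responses or protein turnover. RD29A and RAB18, which abscisic acid and drying induce, were at 14.19 ± 0.23 and 14.18 ± 0.62, and ERD7 at 14.16 ± 0.37. RAB18 was at 12.96 in rgs1 replicate 2 and from 14.22 to 14.66 on the other arrays. The dehydrin HIRD11 (AT1G54410) had a mean of 13.76 ± 0.67. The vacuolar proteases GAMMA-VPE and RD19 were among the most even of these genes, at 14.41 ± 0.16 and 14.04 ± 0.15, and the ubiquitin gene UBQ11 was at 14.30 ± 0.21. The stress enzymes GSTF6, read by a shared probe set, and GPX2 were at 14.06 ± 0.37 and 13.72 ± 0.26.

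Sugar, amino acid and regulatory genes completed the order. STP1, a monosaccharide/proton symporter, ranged from 13.75 to 14.18 with a median of 13.89. The cytosolic glutamine synthetase GLN1;1 was at 13.89 ± 0.31 and the S-adenosylmethionine synthetase MTO3 at 13.90 ± 0.18. The photosystem antenna gene LHCA3 was at 13.87 ± 0.41. Among regulators, the ethylene response factor EBP was at 13.75 ± 0.37 and the senescence NAC factor NAP at 13.68 ± 0.24. JRG21, a gene that jasmonate regulates, was at 14.10 ± 0.65, with 1 wild type array at 12.83. Of the 50 highest, 8 had an SD over 0.5.

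**Figure D3:**
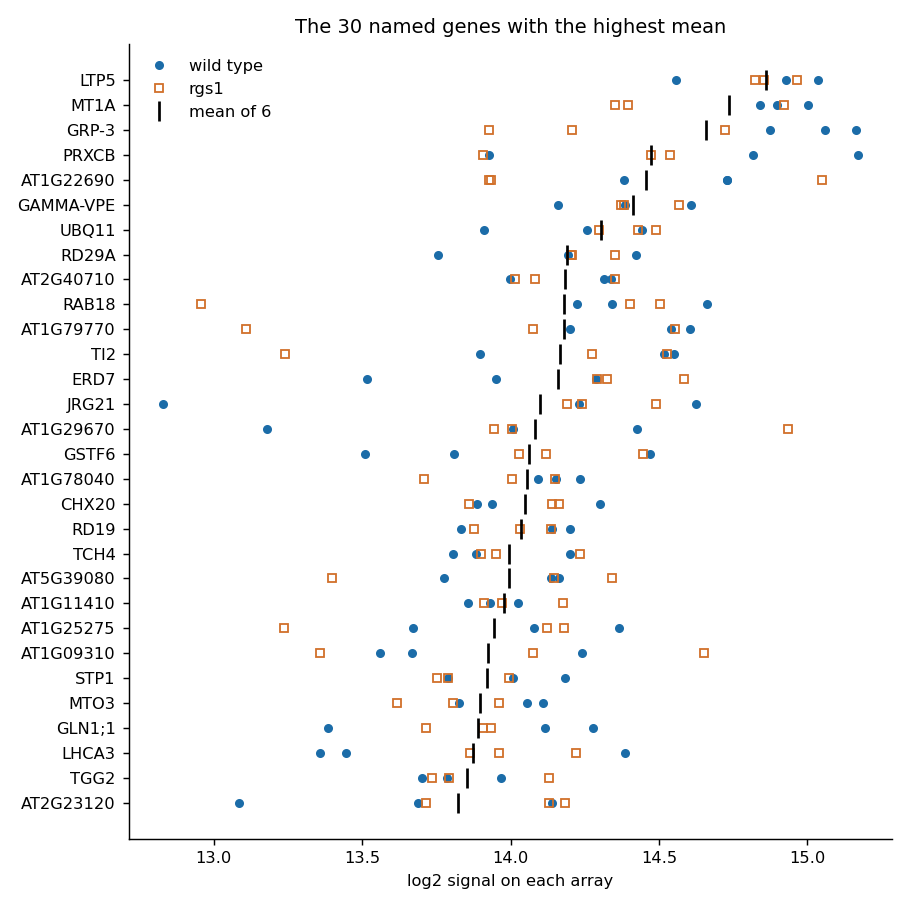
Log2 signal on each of the 6 arrays for the 30 named genes with the highest mean (filled circles, wild type; open squares, rgs1; vertical bar, mean of 6). LTP5 leads at 14.86 ± 0.17, and wide rows such as RAB18, JRG21 and TI2 owe their width to 1 low array each.

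Transporters of ions and water were high as a group. Of 28 ion channel, pump and exchanger genes 25 had a mean of at least 4 and 13 of at least 10. Over all probe sets the shares were 48.6% and 6.5%. The median level of the 28 was 9.16. Besides CHX20, KAT1 and SLAC1, the proton pump AHA1 was at 13.14 ± 0.39 (SD, n = 6). The lowest were the anion channels SLAH2 and SLAH1, at 2.19 and 1.99, which are relatives of SLAC1. Of 17 aquaporins 13 passed 4, led by PIP1B, PIP1;4, PIP2;8 and PIP1A at 12.51, 12.44, 12.41 and 11.62. PIP2;4 and TIP2;3 were at 2.33 and 1.79.

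The sensing and signalling lists were also mostly above background. All 16 genes of light and carbon dioxide sensing passed 4, with a median of 10.97. The blue light receptor PHOT1 was at 12.13 ± 0.19 and the kinase CBC2 at 11.61 ± 0.35, while the red light receptor PHYB was lowest at 6.95. Of 33 genes of core abscisic acid signalling 24 passed 4 and 8 passed 10, against 48.6% and 6.5% of all probe sets. The receptor PYL4 ranged from 12.96 to 14.01 and the phosphatase ABI1 from 11.69 to 12.26. The seed regulator ABI3 and the phosphatase HAI3 were at 1.99 and 1.92. The G protein list had all 11 members above 4 but only XLG3, an extra-large alpha subunit, above 10, at 10.61 ± 0.38.

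Of 14 genes that make or break down abscisic acid 9 had a mean under 4 (64.3%), against 51.4% of all probe sets, and the list median was 2.61. The early enzyme ABA1 was at 11.72 ± 0.37 and the last enzyme AAO3 at 8.90 ± 0.56. NCED2 and CYP707A4 were at 1.95 and 1.99. Responsive genes stood elsewhere: of 24 dehydration and cold genes 20 passed 4 and 11 passed 10, and CBF1 and XERO1 were at 2.24 and 2.17.

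Cuticle and photosynthesis genes were further large groups. Of 39 cuticle and wax genes 29 passed 4 and 16 passed 10, against 48.6% and 6.5% of all probe sets. The elongases KCS13 and KCS9 followed CER6 and FDH at 13.27 ± 0.22 and 12.86 ± 0.27. The wax regulator WIN1 and the hydroxylase CYP86A4 were at 1.80 and 2.01. All 41 photosystem and light harvesting genes passed 4 and 22 passed 10, with LHCB1.4, LHCA2 and LHCB2.2 at 13.49, 13.12 and 13.00 after LHCA3, all 3 on shared probe sets. The lowest of them were PSAE-2 and PSBO2, at 6.17 ± 0.98 and 5.52 ± 1.01. Of 19 Calvin cycle genes 17 passed 4, the subunit GAPA was at 12.96 ± 0.36, and TKL2 was lowest at 2.85.

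Carbohydrate genes held members with high signals and members at background. Of 32 genes of sugar transport and sucrose breakdown 21 passed 4 and 8 passed 10, against 48.6% and 6.5% of all probe sets. After STP1 came the symporter STP4 at 13.09 ± 0.16, the polyol transporter PMT5 at 12.57 ± 0.32 and STP13 at 12.36 ± 0.46. SWEET11 and SWEET12, exporters of phloem parenchyma, were at 1.77 and 1.83. Of 48 starch and trehalose genes 34 passed 4, led by trehalase TRE1 at 12.23 ± 0.21, and the glucose-phosphate carrier GPT2 was at 1.89 and the phosphatase TPPB at 1.77.

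The remaining lists covered stress and the clock. Of 20 heat shock genes 12 passed 4, against 48.6% of all probe sets, and only HSP90.2 passed 10. The small heat shock protein genes HSP21 and HSP18.2 had every array under 4. HSP17.6A, of the same class and named after its values were seen, was at 8.60 in wild type replicate 2 and at most 3.14 on the other arrays. Of 24 pathogen response genes 18 passed 4, led by WRKY33 at 11.16 ± 0.75, and the salicylate markers PR1 and PR2 were at 2.38 and 2.23. Of 27 clock genes 23 passed 4, led by the light sensor FKF1 at 12.52 ± 0.41 and the evening gene ELF4 at 12.03 ± 0.85.

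Gene families differed in how many members were at background. Some families were mostly under 4: 11 of 11 defensin-like LCR peptides, 88 of 112 MYB factors, 23 of 30 xyloglucan enzymes of the XTH name, 15 of 20 expansins and 129 of 196 cytochrome P450s had a mean under 4, against 51.4% of all probe sets. Single members of some of these families were high, such as MYB74 at 12.82 ± 0.52, XTH28 at 12.88 ± 0.32, EXPA10 at 11.75 ± 0.42 and CYP89A5 at 13.50 ± 0.31.

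Other families lay the other way. Of 18 MAP kinases 14 passed 4 and 7 passed 10, with MPK19, MPK11 and MPK3 at 12.39, 11.88 and 11.50 after MPK12. Of 20 ketoacyl-CoA synthases 12 passed 4 and 6 passed 10. Of 108 ABC transporters 64 passed 4, with ABCG19 and ABCG27 both at 12.79, and the wax exporter ABCG12 at 12.25 ± 0.15. WRKY factors were near the overall share, with 28 of 58 under 4, and WRKY6 and WRKY22, both linked to senescence and defence, were at 12.26 ± 0.52 and 11.90 ± 0.72.

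Organelle genes were spread over a wide range of levels. The study checked its RNA amplification on nuclear genes only, so how well organelle transcripts were amplified was not tested. Their low or variable signals therefore need not mean low or variable transcripts. Of 41 probe sets for plastid-encoded photosynthesis genes 27 had a mean of at least 4, and the median level of the 41 was 5.71. Their median SD was 0.86, against 0.38 for all probe sets and 0.85 for those with a mean from 4 to 6. Of the 27, 14 had an SD over 1, against 22.1% of all probe sets with a mean of at least 4. That share was 37.0% for probe sets with a mean from 4 to 6, so it depends on the level. AtpE, a subunit of the plastid ATP synthase, was at 13.79 ± 0.32, psaB, a core protein of photosystem I, at 12.57 ± 0.72, and psaA, its partner, at 1.95. PsbA, for a reaction centre protein of photosystem II, was 10.13, 9.90 and 7.72 in wild type and 10.67, 11.74 and 3.21 in rgs1, so 1 rgs1 array stood far below the others. Of 73 probe sets for mitochondrion-encoded genes 55 were under 4, against 51.4% of all probe sets. The 73 include open reading frames known only by an orf name, which were not counted apart. Cox2 was highest at 10.43 ± 0.58.

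The level of 4 did not separate sharply, since 1846 probe sets had means between 3.5 and 4.5. Just under it were NF-YB7, AT1G62760 and AT5G54780, with means of 4.00 when rounded, and just over it NAC042, SYP73 and AT3G19360, also at 4.00. AT1G62760 was steady, from 3.85 to 4.32, whereas NF-YB7 ranged from 2.75 to 6.04. A mean near 4 could thus come from a steady weak signal or from a few arrays only.

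The spread over the 6 arrays depended on the level. The median SD was 0.04 for probe sets with a mean under 4, 0.85 from 4 to 6, 0.60 from 8 to 10 and 0.37 at 12 and over. Of the probe sets under 4, 67.2% had an SD under 0.1, so a small SD there marks values near a common floor and is not a measure of a steady transcript. Among the 11058 probe sets with a mean of at least 4, 2439 had an SD over 1, or 22.1%, 140 an SD over 2, and 13 an SD over 3. On 160 probe sets at least 1 array was under 4 and another at least 8.

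**Figure D4:**
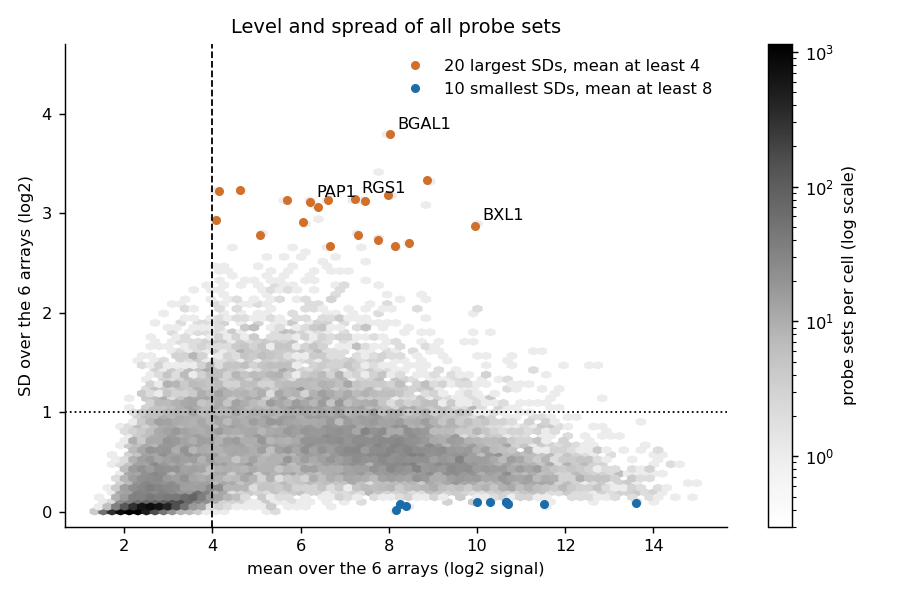
SD over the 6 arrays against mean log2 signal for all 22746 probe sets, darker cells holding more probe sets on a log scale, with the dashed line at a mean of 4 and the dotted line at an SD of 1. BGAL1, at 3.79, has the largest SD of all probe sets with a mean of at least 4.

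None of the 10 steadiest genes at a mean of at least 8 was among the 21 reference genes measured. PHO2, an enzyme of phosphate balance, was 8.16, 8.17 and 8.15 in wild type and 8.14, 8.18 and 8.17 in rgs1, an SD of 0.02. ABCI8, a plastid iron-sulphur assembly protein, was at 11.53 ± 0.08 (SD, n = 6), the protease RD21B at 10.70 ± 0.08, the desaturase FAD5 at 13.61 ± 0.09, the plastid signalling protein GUN1 at 10.66 ± 0.10, and the sterol enzyme DWF5 at 10.65 ± 0.10. The 21 reference genes all passed 4 and had a median SD of 0.47. Of these, UBQ11 and UBQ10 had an SD of 0.21, and the lowest, UBC21 and UBQ3, had means of 6.25 ± 0.87 and 5.65 ± 0.94.

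Among probe sets matched to 1 nuclear gene in RefSeq, BGAL1 had the largest SD, and BGAL4 and BXL1, like it in the sugar starvation list, were also among the 20 largest. Probe sets without such a match were left out of the 20, AT3G24954 (SD 3.40), psbA (3.08), ndhD (2.92) and AT5G02330 (2.68) with them. BGAL1, a beta-galactosidase of the cell wall, was 12.33, 10.29 and 2.75 in wild type replicates 1, 2 and 3 and 7.66, 10.71 and 4.41 in rgs1 replicates 1, 2 and 3. BGAL4, of the same family, was 9.15, 10.48 and 3.02 in wild type and ranged from 5.21 to 10.68 in rgs1. BXL1, a xylosidase, was 12.50, 11.80 and 9.07 in wild type and 6.59, 12.98 and 6.76 in rgs1. In all 3 genes the 3 highest values were in wild type replicates 1 and 2 and in rgs1 replicate 2, so high and low arrays occurred in both genotypes.

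The same 3 arrays held the highest values of other variable genes. They did so for 8 of the 20 named genes: these 3, PRP2, a proline-rich protein, AT1G49500, AT2G43620, AT3G60420 and SNG1, a sinapoyl transferase. PRP2 was 11.94, 10.34 and 3.32 in wild type and 6.85, 11.89 and 8.79 in rgs1. SEN1, a dark-induced gene, was 8.45, 7.35 and 4.09 in wild type and 3.00, 8.42 and 5.31 in rgs1, and was picked from the starvation list after its values were seen. Of the 17 sugar starvation genes with a mean of at least 4, 7 had their 3 highest values in these arrays, BGAL1, BGAL4, BXL1 and SEN1 among them, so this count describes the pattern and is no support for it. An SD over 1 was found for 7 of the 17, and for 9 of the 18 pathogen response genes with a mean of at least 4, against 22.1% of all probe sets at that level. The 3 arrays held the 3 highest values of 208 of the 2438 variable genes (8.53%). BZIP53 and ATG8F, of the same list, were high and even at 12.92 ± 0.19 and 12.36 ± 0.47, while DIN6 and DIN2 were at 2.73 and 2.70.

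Other genes among the 20 had a different order of arrays. PAP1, which turns on anthocyanin synthesis, was 3.21, 5.46 and 9.13 in wild type and 8.07, 2.06 and 9.29 in rgs1, and its 3 highest arrays were the 3 lowest of BGAL1. RRTF1, a redox-responsive factor, was 4.30, 9.19 and 9.15 in wild type and 8.97, 3.21 and 9.02 in rgs1. TPS04, a terpene synthase, was 2.29, 9.91 and 8.08 in wild type and 6.86 and 4.65 in rgs1 replicates 1 and 3. All 3 genes had their lowest values in wild type replicate 1 and rgs1 replicate 2, but RRTF1 and TPS04 were highest in wild type replicate 2, where BGAL1 was high as well. Of 24 wound and jasmonate genes 15 passed 4, against 48.6% of all probe sets. An SD over 1 was found for 4 of the 15, against 22.1% of all probe sets at that level. JAZ1, a repressor of jasmonate responses, was 11.20, 13.21 and 13.48 in wild type and 12.47, 12.18 and 13.06 in rgs1.

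Other variable genes followed patterns of their own. PBS3, an enzyme of salicylate defence, was 8.33, 8.27 and 2.03 in wild type and at background on all rgs1 arrays. FAR1, a fatty acid reductase, was 7.03 and 8.51 in rgs1 replicates 1 and 2 and between 1.88 and 3.09 on the other 4 arrays. CYP71B22, a cytochrome P450, was 2.82, 2.46 and 6.92 in wild type and 9.33, 7.48 and 9.34 in rgs1, so the genotypes did not overlap. The 3 rgs1 arrays held the 3 highest values of 98 of the 2438 variable genes (4.02%). The peroxidase gene PRX71 (AT5G64120) ranged from 3.49 in rgs1 replicate 1 to 13.17 in wild type replicate 2.

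**Figure D5:**
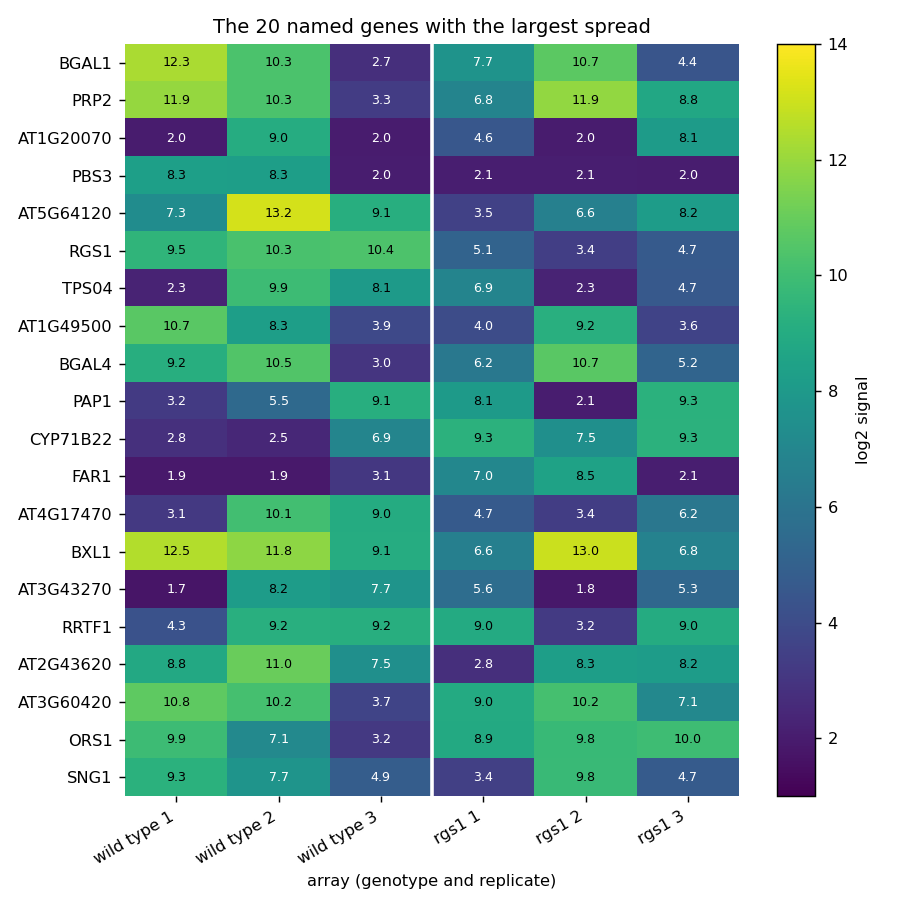
Log2 signal on each array (columns, by genotype and replicate number) for the 20 genes with the largest SD among probe sets matched to 1 nuclear gene in RefSeq with a mean of at least 4, with the value printed in each cell. BGAL1, BGAL4, BXL1 and PRP2 are high in wild type 1, wild type 2 and rgs1 2, and PAP1 is high in the other 3 arrays.

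Over all 2438 variable genes other than RGS1, no array held most of the extremes. The highest value was in wild type replicate 2 for 482 genes and in wild type replicate 3 for 331, and the lowest in rgs1 replicate 1 for 579 and in rgs1 replicate 3 for 266. The 3 highest values were most often in wild type replicates 2 and 3 with rgs1 replicate 3 (293 genes, 12%), then in wild type replicate 1 with rgs1 replicates 1 and 2 (212) and in the 3 arrays of the BGAL1 pattern (208). They were the 3 wild type arrays for 96 genes and the 3 rgs1 arrays for 98. Over the genes with a mean of at least 4, pairs of arrays of 1 genotype correlated at 0.847 to 0.874 and pairs of different genotypes at 0.821 to 0.911, a description across genes that share the arrays.

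The 3 replicate numbers were compared with genotype as a covariate. The labels do not tie a number to a batch, so this test cannot show what accounted for the spread. None of 11653 genes passed an adjusted p under 0.05 in limma's F test of the 3 numbers (0%), the smallest adjusted p was 0.597, and 905 had an unadjusted p under 0.05 (7.77%). PIRL5, a leucine-rich repeat protein, had the smallest unadjusted p. It was 3.77, 8.99 and 6.64 in wild type and 2.41, 8.30 and 6.07 in rgs1. The nitrate transporter NRT2:1 was 3.48, 9.25 and 7.33 in wild type and 3.11, 7.52 and 7.93 in rgs1. Both were lowest in replicate 1 of each genotype, but they were picked by their small p, so this is no support for a pattern.

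Between genotypes, the genes next to RGS1 by unadjusted p had 1 genotype at or near background. AT1G29430 (SAUR62), read by a shared probe set, was 3.58, 2.54 and 2.53 in wild type and 7.21, 7.28 and 7.93 in rgs1, with a log2 difference of 4.59, an SE of 0.46 and a limma adjusted p of 0.0667. AT3G31540, also on a shared probe set, was 7.38, 9.05 and 8.23 in wild type and under 4 on every array in rgs1, with the same adjusted p. BAS1, which inactivates brassinosteroids, was 5.21, 5.72 and 5.48 in wild type and 2.55, 2.54 and 2.53 in rgs1, with a limma adjusted p of 0.170. The groups did not overlap in any of these genes, but genes picked by a small p tend to differ so, and this is no support. AT1G29430, AT3G31540 and BAS1 entered the fit only through the arrays of the genotype where they were high. None passed the adjusted threshold in this fit. With a filter at 6, AT1G29430 and AT3G31540 passed that threshold with an adjusted p of 0.0261 in limma, as RGS1 did. Each of these was kept by that filter through the arrays of 1 genotype only. In the limma fit of all 18 arrays AT1G29430 passed with an adjusted p of 1.34e-05 and AT1G08180 with 0.0158. That fit tested only genes kept by the filter at 4 on the arrays without sugars. Both genes were under 4 there on every wild type array, so they entered it only through rgs1.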

How the data were processed

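Signals came from Affymetrix ATH1 arrays. The authors scanned them with MAS 5.0 and made the deposited log2 values with GCRMA, which corrects background, normalizes between arrays and summarises probes; the version is not given in the sources used here. Both deposited tables held the same values (22746 of 22746 probe sets equal within 0.0005). Dim probe sets sit at a floor, so low values carry little information. No normalization was added.

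Means and SDs were taken over the 6 arrays. Gene names came from the deposited identifiers matched to RefSeq (TAIR10.1) symbols: 21604 probe sets had 1 gene, and 503 were paired with several and not named. Of 676 rows in 31 lists, 623 had a usable probe set. Symbols of RefSeq were replaced by usual names for some genes. Members and lists were chosen with earlier results of these data known.

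Genes named came from probe sets matched to 1 nuclear gene in RefSeq, by this rule: the 40 highest means, the 20 largest SDs at a mean of at least 4, the 10 smallest SDs at a mean of at least 8, the 4 highest and 2 lowest of each list or family, every guard cell marker and stomatal lineage gene, those next to a mean of 4, and the first by unadjusted p. Organelle genes were taken by the files' own names. SEN1, SUC2, COBL9, GL1, PR1, HSP17.6A, psaA, psbA, ndhD, AT3G24954 and AT5G02330 were chosen after their values were seen. Comparisons used limma 3.58.1 in R 4.3.3 with Benjamini-Hochberg adjustment, on genes with a log2 value of at least 4 on at least 3 arrays (genotype) or 2 arrays (replicate number); the script was tested on simulated data. Each sample came from 1 plant, and the number of arrays limits the precision. Alternatives were other normalizations, filters, thresholds and subsets of arrays. Results for 1 gene family are not reported here.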

Additional observations from a re-analysis of the deposited data

Results flagged for a closer look

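Of 47 quantities checked over the 6 arrays (array summaries and list medians), 1 had an array far from the others; chance flags about 1 in 20 such quantities. The median level of the genes of light and carbon dioxide sensing was 10.44 in rgs1 replicate 1, and from 10.91 to 11.11 on the other 5 arrays.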

How the results depend on the processing

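The share of probe sets with a mean under 4 was 51.7% in the wild type arrays alone, 51.2% in the rgs1 arrays alone, 51.1% over probe sets paired with 1 gene (an alternative chosen after seeing the data), and 52.3% with the median in place of the mean. It was 39.2% under 3, 57.9% under 5, 64.4% under 6, and 44.0% when all 6 arrays had to be under 4. Leaving out 1 array gave 51.3% to 51.5%. The number of genes with an SD over 1 was 1341 at a mean of at least 6, and 2268 to 2625 without 1 array. Without 1 array, 45 to 48 of the 50 highest were shared and 1463 to 1505 probe sets had a mean of at least 10.

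For rgs1 against wild type, limma called 1 gene with no filter (AT2G29070), 3 with a filter at 6 and 3 at an adjusted p under 0.1 (RGS1, AT1G29430 and AT3G31540 in both), and 3 in a fit of all 18 arrays (RGS1, AT1G29430 and AT1G08180). Leaving out 1 array gave 0 calls in both comparisons, with 379 to 713 genes (713 without rgs1 replicate 3) at an unadjusted p under 0.05 for genotype and 646 to 1069 for replicate number, and the RGS1 difference ran from -5.99 to -5.13. With the replicate block, the pairing by number gave 0 calls, 567 genes at an unadjusted p under 0.05, and RGS1 at -5.63 with an adjusted p of 0.432. Deviations of same-numbered arrays from their genotype means correlated at 0.107, 0.0714 and 0.210 (numbers 1, 2 and 3), wild type replicates 1 and 2 correlated best with another number, and the numbers were not taken to pair the samples. The replicate number gave 0 calls under every alternative run. Quantile normalization and median centring moved a named gene's mean by 0.05 at most. The deposited values were already normalized between arrays, so these 2 alternatives could change little. The 76 named genes' levels stayed within 1 SD in the 10 settings each, but each SD came from the same 6 arrays. The subsets of arrays used here could not move a mean that far, so this does not show stability. The largest shift was 2.81, for RGS1 with 1 genotype alone. All probe sets were already included. Promoter motifs and 6 families defined by descriptions were not run, since no promoter table or descriptions were used here.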
